A study of Drosophila melanogaster with 18 samples.

Results

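The comparison of adult gonads with adult heads asked which genes stood apart in the same direction in both sexes. Ovaries and testes were set against female heads and male heads, with 2 libraries of each, so that 4 gonad libraries faced 4 head libraries. All flies were of the isogenic wild-type laboratory strain w1118, a stock that carries a mutant allele of the eye-pigment gene white, and the adults were 24 h old. Gonads came from unfrozen flies by dissection, whereas heads were collected after freezing. Replicate numbers are those of the count table's columns, and it was not settled that they match the numbering of the sequencing runs. The labels do not say how many flies went into a library or whether the libraries of a group came from separate collections, so the p-values measure the spread between these libraries. The other libraries were from bodies of each sex, embryos of 18 h, larvae and whole adults, and made up the remainder of the 18 libraries.

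Members were found in a fit of all 12 adult-part libraries. The mean of ovary and testis was set over the mean of female and male head in edgeR's quasi-likelihood test. Calls needed a log2 fold change of 1 or more in size and a p under 0.05 after Benjamini-Hochberg adjustment. A call was counted as shared when the ovary over female head and the testis over male head log2 fold changes both had that sign. Of the 17825 genes listed, 12597 passed the filter on low counts and were tested. Shared calls numbered 3565 genes higher in both gonads and 3529 genes lower in both. All levels below are in CPM, the counts of a gene per 1000000 counts of its library, scaled with TMM factors, and all fold changes are gonad over head on the log2 scale.

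A fly gonad holds germ cells at every stage, namely stem cells, dividing cysts, meiotic cells and gametes in formation, wrapped in somatic cells. The ovary also holds nurse cells, which copy their DNA many times over and load the egg with RNA, protein and ribosomes. The testis runs a few mitotic divisions, then meiosis and the shaping of sperm. The germline of both sexes guards its genome with piRNAs, small RNAs that guide Piwi proteins to transposon transcripts. The head is mainly compound eye, brain, muscle and fat body, and its cells rarely divide. In bulk tissue, fewer cells of a type and less RNA per cell cannot be told apart.

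In the mean contrast 32.9% of the genes tested were called higher and 31.2% lower in gonads. Requiring the same sign in each sex left 28.3% higher and 28% lower. A stricter reading asked for a call in each sex on its own. It was met by 1148 genes called higher in ovary over female head and also in testis over male head (9.11% of the genes tested), and by 2540 genes called lower in both (20.2%). Of the 3565 shared higher genes, 685 were called on their own in the ovary only, 1713 in the testis only and 19 in neither. Of the 3529 shared lower genes, 377 were called in the ovary only, 573 in the testis only and 39 in neither. In 3134 of the shared lower genes all 4 gonad libraries lay below all 4 head libraries, and in 1850 of the shared higher genes they all lay above. These genes were called from the same libraries, so their separation is no further result. The share of such separation over all genes tested is not given here. A further 966 genes (7.67%) were called in opposite directions in the sexes.

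**Figure D1:**
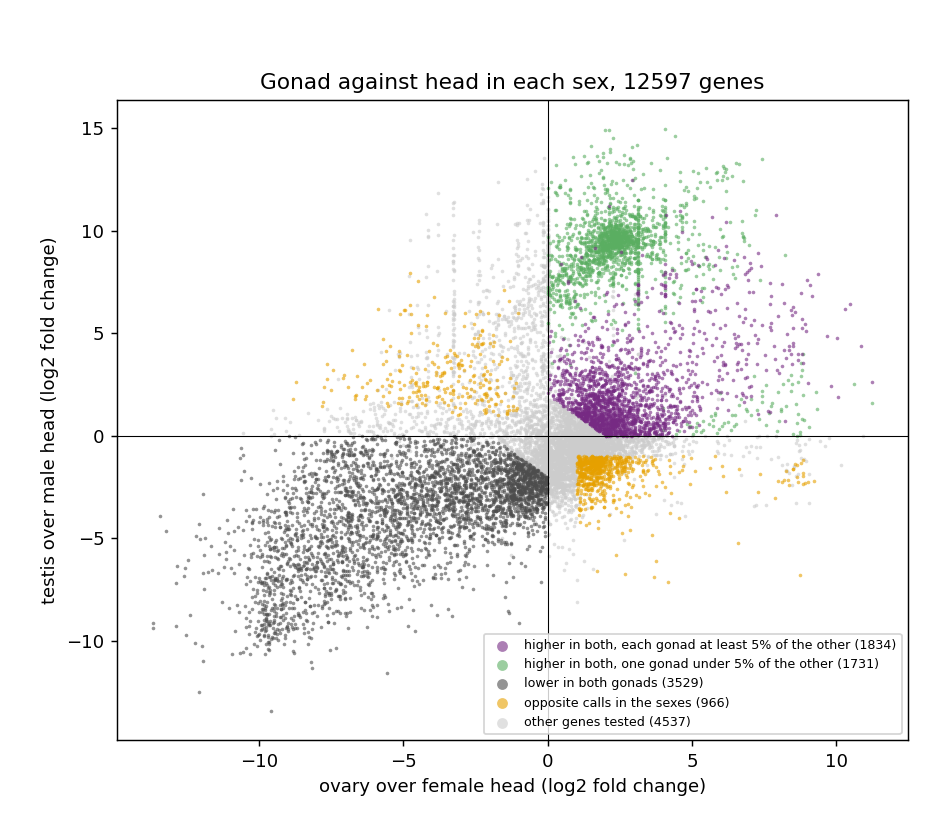
Each point is one of the 12597 genes tested, with the ovary over female head log2 fold change on the x axis and the testis over male head log2 fold change on the y axis. The 3529 genes lower in both gonads fill the lower left, and the 3565 genes higher in both fall into a cloud near the diagonal and a second cloud with large testis and small ovary differences.

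Marker genes of each tissue were summed in every library, which also showed which other transcripts the gonad libraries held. The 6 markers of photoreceptors and neurons summed to 54.3 and 19.96 CPM in ovaries and 88.8 and 71.0 CPM in testes, against 42930 and 30010 CPM in female heads and 39790 and 28570 CPM in male heads. The 5 testis markers summed to 8502 and 6184 CPM in testes. The 4 ovary markers with counts (osk, bcd, grk and yl, with BicC at 0 throughout) summed to 2583 and 2321 CPM in ovaries and 8.24 and 5.76 CPM in testes, against 33.8 and 32.6 CPM in female heads and 38.1 and 27.6 CPM in male heads. Of these grk was also present in heads, at 50.8 and 33.0 CPM in ovaries and 1.94 and 2.55 CPM in testes, against 26.4 and 28.8 CPM in female heads and 23.2 and 20.8 CPM in male heads. Late follicle cell genes (3 of 6 with counts), which make the eggshell, summed to 26730 and 21640 CPM in ovaries and 32.8 and 13.8 CPM in testes. In heads they summed to 44.8 and 48.3 CPM in females and 132 and 90.4 CPM in males. Every head library thus lay above both testis libraries, and how these transcripts came into the heads was not tested. A gene with such levels can count as lower in testes over male heads, and so as called in opposite directions. Both testis libraries also held 7 of 11 accessory gland genes, which encode seminal fluid proteins, at 7378 and 5663 CPM in sum. Muscle markers (7 of 8 with counts) stood between 606 and 1322 CPM in the gonads and between 12630 and 24810 CPM in the heads. Fat body markers, yolk protein genes among them, stood at 13750 and 11670 CPM in ovaries and 144 and 83.1 CPM in testes, against 14530 and 23090 CPM in female heads and 2675 and 3789 CPM in male heads. Most of the ovary sum came from the yolk protein genes Yp1, Yp2 and Yp3, at 3067, 7703 and 2917 CPM in ovary replicate 1. The other fat body markers, Lsp2, apolpp, Lsd-1, fit and to, were lower in both ovary libraries than in every head library. For apolpp the levels were 41.7 and 17.6 CPM in ovaries, against 1876 and 2848 CPM in female heads. Blood cell markers stood between 10.3 and 29.5 CPM in the gonads and between 164 and 243 CPM in the heads. The part of these cell types in the shared differences was not tested.

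Germ cell markers of both sexes (vas, bam and aub, with nanos at 2 counts or fewer and zpg at 0) summed to 535 and 477 CPM in ovaries and 26.9 and 30.4 CPM in testes, against 3.89 and 2.68 CPM in female heads and 5.49 and 4.59 CPM in male heads. All gonad libraries lay above all head libraries, and the ovaries lay far above the testes. Genes that lie wholly inside other genes, 3487 in number, had a count of 0 in every library. The germline gene zpg is among them, and the neuronal gene elav, nearly wholly overlapped, had at most 5 counts, so their low counts say nothing of their expression. For nanos and the other markers at 0 the overlap is not given here, so their low counts are not read as absence.

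Testis transcripts were also present at a low and even level in ovary replicate 1. The 5 testis markers there stood at 1.13 to 1.91% of their level in testis replicate 1, with a median of 1.16%, and the 7 accessory gland genes at 0.429 to 1.21%, with a median of 1.11%. In ovary replicate 2 both medians were lower, at 0.226% and 0.23% of testis replicate 2. The medians were 0.194 to 0.228% in the replicate 1 heads and 0.0496 to 0.0658% in the replicate 2 heads. How these transcripts came into the ovary and head libraries was not tested. A gene made in the testis alone can therefore have passed as higher in both gonads. Of the 3565 shared higher genes, 1650 had an ovary level under 5% of their testis level and 81 had a testis level under 5% of their ovary level. The remaining 1834 genes had each gonad at 5% or more of the other, a limit chosen after these values were seen. Among the 1148 genes called higher in each sex, 961 met it. The 3565 genes became 2599 without ovary replicate 1, of which 2534 were in the set from all libraries.

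**Figure D2:**
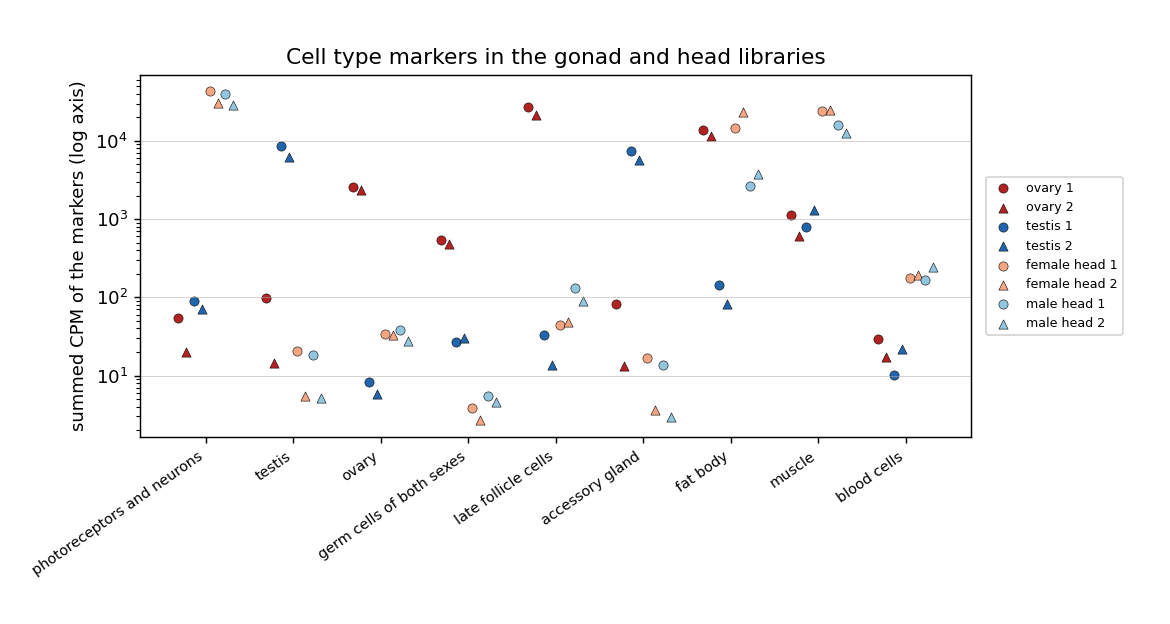
Summed CPM of each marker list (log axis) in the 4 gonad and the 4 head libraries, with circles for replicate 1 and triangles for replicate 2. Testis and accessory gland markers lay between 5663 and 8502 CPM in testes and at 98.9 and 82.8 CPM in ovary replicate 1.

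The genes highest in both gonads relative to heads had very little RNA in heads. They were picked from the 1148 by the smaller of their fold changes in the sexes. cmet had 84.3 and 146 CPM in ovaries and 87.5 and 121 CPM in testes, against 1.07 and 0.597 CPM in female heads and 0.950 and 0.668 CPM in male heads (log2 fold change 7.07, SE 0.34, adjusted p = 2.55e-07). This gene encodes a kinesin of the CENP-E type that sits at kinetochores. mud had 156 and 223 CPM in ovaries and 185 and 283 CPM in testes, against 1.83 and 1.21 CPM in female heads and 2.73 and 0.967 CPM in male heads (log2 fold change 6.98, SE 0.43, adjusted p = 9.37e-07). Its product, the fly counterpart of NuMA, orients the mitotic spindle. sub had 56.6 and 88.6 CPM in ovaries and 66.0 and 64.0 CPM in testes, against 0.255 and 0.0770 CPM in female heads and 0.772 and 0.281 CPM in male heads (log2 fold change 7.89, SE 0.46, adjusted p = 6.91e-07). It encodes a kinesin of the spindle midzone and the female meiotic spindle. cmet lies on chromosome 2L, bases 11261026 to 11269002 of dm6, mud on X from 14247732 to 14258595, and sub on 2R from 17745500 to 17748078. The choice of these genes required gonad and head libraries that do not overlap, so their separation is no further result.

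The germline gene stil, needed for the survival of female germ cells, was nearly level between the sexes. stil had 25.2 and 20.8 CPM in ovaries and 23.4 and 20.2 CPM in testes, against 0.0695 and 0 CPM in female heads and 0.119 and 0.0703 CPM in male heads. In females the ratio was 719-fold higher (95% counting interval 246 to 3490), because the female head libraries held 3 and 0 counts, and in males the log2 fold change was 7.88 (adjusted p of the mean contrast 5.1e-07). Trf4-2 had 36.4 and 73.8 CPM in ovaries and 109.9 and 114 CPM in testes, against 0.602 and 0.231 CPM in female heads and 0.267 and 0.474 CPM in male heads (log2 fold change 7.63, SE 0.46, adjusted p = 8.03e-07), and its product belongs to a family of non-canonical poly(A) polymerases. The hairpin RNA hpRNA:CR32205, of a class that is cut into endogenous siRNAs, reached 26.4 and 10.9 CPM in ovaries and 22.6 and 12.6 CPM in testes, against 0.162 and 0.0193 CPM in female heads and 0.237 and 0 CPM in male heads (log2 fold change 7.58, SE 0.92, adjusted p = 7.01e-05).

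The remaining genes of this group have no role stated here. CG14931 had 92.9 and 96.2 CPM in ovaries and 84.8 and 83.3 CPM in testes, against 0.301 and 0.0770 CPM in female heads and 0.712 and 0.193 CPM in male heads (log2 fold change 8.29, SE 0.52, adjusted p = 1.01e-06). msb1l had 94.8 and 143 CPM in ovaries and 62.1 and 71.0 CPM in testes, against 0.556 and 0.308 CPM in female heads and 0.267 and 0.492 CPM in male heads (log2 fold change 7.76, SE 0.32, adjusted p = 1.47e-07). CG7208 had 94.9 and 119 CPM in ovaries and 162 and 106 CPM in testes, against 1.04 and 0.693 CPM in female heads and 1.04 and 0.369 CPM in male heads (log2 fold change 7.28, SE 0.42, adjusted p = 6.51e-07). All of them lay between 62.1 and 162 CPM in the gonads and under 1.1 CPM in every head library. CG18545 had 1.78 and 0.894 CPM in ovaries and 18.03 and 11.2 CPM in testes, against 0 and 0 CPM in female heads and 0.0594 and 0.105 CPM in male heads. With no count in either female head library, its level was at least 19.2-fold higher in ovaries, taking 3 counts per library as the floor, and its log2 fold change in males was 7.36.

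At the other end stood genes under 5 CPM in all gonad libraries. Some of them were strong in heads, and others, such as RabX5, stood at a few CPM there. retinin had 4.53 and 2.75 CPM in ovaries and 3.38 and 2.47 CPM in testes, against 4428 and 5578 CPM in female heads and 3443 and 4298 CPM in male heads (log2 fold change -10.40, SE 0.47, adjusted p = 2.04e-07). Retinin is a protein of the corneal lens, and its gene lies on chromosome 3L, bases 16331933 to 16332789. Rh3 had 1.96 and 0.941 CPM in ovaries and 1.83 and 0.549 CPM in testes, against 1789 and 1536 CPM in female heads and 1398 and 1268 CPM in male heads (log2 fold change -10.15, SE 0.67, adjusted p = 1.39e-06). Rh3 is an ultraviolet-sensitive opsin of the inner photoreceptors, and its gene lies on 3R, bases 20081060 to 20082450. Capa had 0.0220 and 0 CPM in ovaries and 0 and 0.0646 CPM in testes, against 56.5 and 37.2 CPM in female heads and 53.0 and 40.8 CPM in male heads. Capa encodes neuropeptides that act on the renal tubules. Its level in females was 5020-fold lower (95% counting interval 901 to 198000), from 1 and 0 counts in the ovary libraries, and its log2 fold change in males was -10.25 (adjusted p of the mean contrast 1.34e-06).

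The others of this group had 0 counts in 3 or all 4 gonad libraries. CG14495 had 0 and 0 CPM in ovaries and 0 and 0 CPM in testes, against 6.32 and 14.9 CPM in female heads and 10.4 and 18.2 CPM in male heads. Its level was at least 161-fold lower in ovaries and at least 221-fold lower in testes than in the heads of the same sex (adjusted p of the mean contrast 6.14e-06). CG34165 had no count in any gonad library, against 8.96 and 10.1 CPM in female heads and 3.24 and 6.78 CPM in male heads, which put it at least 144-fold lower in ovaries and at least 77.6-fold lower in testes. The Rab-related gene RabX5 had 0 counts in the gonads, against 4.45 and 2.87 CPM in female heads and 4.84 and 2.50 CPM in male heads, so it was at least 55.5-fold lower in ovaries and at least 56.8-fold lower in testes. The other members were non-coding RNAs. For lncRNA:CR45457 the bounds were at least 72.3-fold lower in ovaries and at least 60.8-fold lower in testes. They were at least 59.8-fold lower and at least 58.6-fold lower for lncRNA:CR44023 in the same order, and at least 47.3-fold lower and at least 60.7-fold lower for lncRNA:CR45597. lncRNA:CR45533 was at least 176-fold lower in ovaries, and in testes, with 0 and 2 counts, it was 1140-fold lower (95% counting interval 315 to 9430). Their adjusted p in the mean contrast lay between 6.37e-06 and 0.000255.

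**Figure D3:**
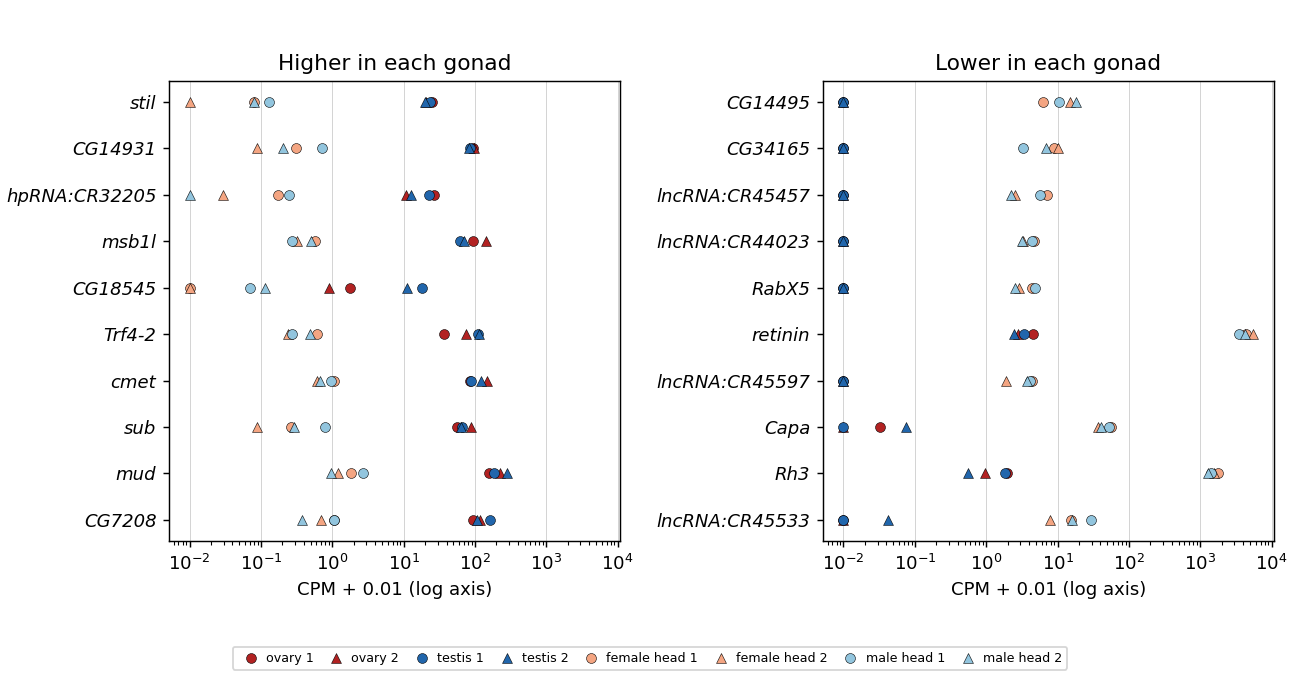
CPM plus 0.01 on a log axis for the 10 genes with the largest shared rise and the 10 with the largest shared fall, one point per library (circles replicate 1, triangles replicate 2). The gonad and head libraries of the 20 genes lie apart because the choice of these genes required it, and points at 0.01 are libraries with 0 counts.

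Many genes of the germline were higher in both gonads, and at unequal height. Among 14 tested genes of germline identity and differentiation, 8 were shared higher, 3 shared lower and 3 neither, with a median log2 fold change of 3.39 in females and 1.02 in males. Over all genes tested the medians were 0.42 in females and -0.28 in males. For this list and those below, the shares over all genes tested were 28.3% shared higher and 28% shared lower. In each sex on its own they were 9.11% called higher and 20.2% called lower. vas had 346 and 273 CPM in ovaries and 9.58 and 9.15 CPM in testes, against 1.20 and 0.597 CPM in female heads and 1.28 and 1.09 CPM in male heads (log2 fold change 5.71, SE 0.31, adjusted p = 4.36e-07). This gene encodes the RNA helicase Vasa of the germ granules, and 82.8% of its span is overlapped by other genes, so that its count covers only part of it. bru1 had 1293 and 1523 CPM in ovaries and 1686 and 1449 CPM in testes, against 118 and 136 CPM in female heads and 119.9 and 132 CPM in male heads (log2 fold change 3.55, SE 0.20, adjusted p = 6.47e-07), with ovary and testis at like levels. Bru1 represses translation in the germline and also regulates splicing in flight muscle. For otu, an oogenesis gene that encodes a deubiquitinase, the mean contrast rested on the ovary. otu had 757 and 1046 CPM in ovaries and 6.26 and 5.13 CPM in testes, against 2.22 and 2.27 CPM in female heads and 4.04 and 3.37 CPM in male heads, with log2 fold changes of 8.65 in females and 0.62 in males. The sex-determination gene Sxl went the other way, with log2 fold changes of -0.75 in females and -3.94 in males (mean contrast 6.52e-05 for the adjusted p). So did tud, a Tudor-domain scaffold of the germ plasm, with -0.31 in females and -1.70 in males, and mei-P26 was the other shared lower member. The fall of tud was -1.01 in the mean contrast, at the limit of the call, and it was -0.83 with DESeq2 size factors.

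Most of the piRNA pathway was higher in both gonads. Of 27 tested members 21 were shared higher (background 28.3%), 0 shared lower and 6 neither, and 17 were called higher in each sex on its own (background 9.11%). The group had a median log2 fold change of 5.08 in females and 2.096 in males. mael had 127 and 136 CPM in ovaries and 56.4 and 70.8 CPM in testes, against 3.84 and 2.52 CPM in female heads and 3.95 and 3.66 CPM in male heads (log2 fold change 4.72, SE 0.20, adjusted p = 1.64e-07). Mael acts in piRNA-guided transcriptional silencing. aub had 172 and 177 CPM in ovaries and 14.2 and 18.1 CPM in testes, against 2.64 and 2.04 CPM in female heads and 4.10 and 3.46 CPM in male heads (log2 fold change 4.16, SE 0.18, adjusted p = 1.82e-07). Aub is a Piwi-family protein that slices transposon RNA in the cytoplasm. The Tudor-domain gene vret had log2 fold changes of 6.88 in females and 3.49 in males (adjusted p 1.3e-07), and the RNA helicase gene armi 5.13 in females and 1.92 in males (adjusted p 2.35e-07). The ovary difference exceeded the testis difference for all 4.

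Of 18 tested genes of meiotic recombination and chromosome pairing, 11 were shared higher (background 28.3%), 0 shared lower and 7 neither. Of the 18, 8 were called higher in each sex (background 9.11%). c(2)M had 31.3 and 24.8 CPM in ovaries and 1.79 and 1.10 CPM in testes, against 0.324 and 0.173 CPM in female heads and 0.534 and 0.387 CPM in male heads (log2 fold change 4.24, SE 0.32, adjusted p = 3e-06). Its product lies in the lateral elements of the synaptonemal complex, the zipper between paired chromosomes. cona had 6.07 and 2.27 CPM in ovaries and 109 and 82.4 CPM in testes, against 0.208 and 0.0770 CPM in female heads and 0.119 and 0.123 CPM in male heads (log2 fold change 7.24, SE 0.52, adjusted p = 2.45e-06). Cona belongs to the central region of the same complex, which male flies are known not to build, and its testis level was the higher one. A like order was seen in ord, a gene of meiotic sister cohesion, with 3.73 in females and 9.76 in males. For vilya, a gene of meiotic break formation, levels were low throughout, and the ovary level was 31.7-fold higher (95% counting interval 13.3 to 98.8) than in female heads, which held 3 and 2 counts, beside a log2 fold change of 2.49 in males.

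Most genes that copy DNA were higher in both gonads, and their median difference was larger in the ovary. Of 36 tested replication genes, 27 were shared higher, 0 shared lower and 9 neither. All 36 were called higher in ovaries over female heads, 17 were called higher and 4 lower in testes over male heads, and 17 were called higher in each. The group had a median log2 fold change of 4.97 in females and 0.75 in males. With DESeq2 size factors the medians were 4.68 in females and 1.41 in males. dpa had 251 and 301 CPM in ovaries and 20.9 and 20.6 CPM in testes, against 8.198 and 6.26 CPM in female heads and 7.93 and 7.06 CPM in male heads (log2 fold change 3.36, SE 0.17, adjusted p = 2.99e-07). It encodes Mcm4, a subunit of the replicative helicase. geminin had 193 and 199 CPM in ovaries and 51.9 and 44.3 CPM in testes, against 11.4 and 13.5 CPM in female heads and 11.8 and 12.4 CPM in male heads (log2 fold change 2.98, SE 0.15, adjusted p = 3.61e-07). Geminin holds back the loading of that helicase. PCNA, the sliding clamp, had log2 fold changes of 6.72 in females and 1.79 in males (adjusted p 5.79e-07). RnrS, the small subunit of ribonucleotide reductase, was near head level in testes, with 5.93 in females and 0.33 in males. Of the 27 genes, 10 had a testis level under 5% of the ovary level.

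Among 39 tested regulators of the mitotic cell cycle 25 were shared higher, 0 shared lower and 14 neither, 21 were called higher in each sex, and the list had a median log2 fold change of 5.72 in females and 1.32 in males. Cks30A had 124 and 125 CPM in ovaries and 30.8 and 27.7 CPM in testes, against 2.13 and 1.77 CPM in female heads and 1.96 and 1.86 CPM in male heads (log2 fold change 4.97, SE 0.18, adjusted p = 9.52e-08). Cks30A binds cyclin-dependent kinases. CycB had 2182 and 3015 CPM in ovaries and 132 and 112 CPM in testes, against 6.48 and 5.41 CPM in female heads and 13.2 and 7.71 CPM in male heads (log2 fold change 6.16, SE 0.29, adjusted p = 2.22e-07). Cyclin B drives entry into division, and its ovary level was the highest of the genes named from this list. The securin gene pim had 6.77 in females and 5.55 in males (adjusted p 2.68e-07), and Incenp, of the chromosomal passenger complex, had 7.75 in females and 5.50 in males (adjusted p 2.94e-07).

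Kinetochore and centromere genes had the largest share of shared higher members among the 27 lists. Of 15 tested members 13 were shared higher, and the same 13 were called higher in each sex. Their log2 fold changes ran between 2 and 8 in females and between 1.40 and 7.02 in males. The other 2, Kmn1 and Zw10, were called in the ovary only. Zwilch had 33.6 and 45.5 CPM in ovaries and 12.1 and 13.7 CPM in testes, against 0.486 and 0.212 CPM in female heads and 0.178 and 0.281 CPM in male heads (log2 fold change 6.29, SE 0.32, adjusted p = 3.52e-07). Zwilch is a part of the complex that brings the spindle checkpoint to kinetochores. cid had 56.6 and 63.9 CPM in ovaries and 3.72 and 3.16 CPM in testes, against 0.255 and 0.212 CPM in female heads and 0.594 and 0.246 CPM in male heads (log2 fold change 5.54, SE 0.31, adjusted p = 5.66e-07). Cid is the centromeric histone of the CENP-A type, and it was low in testes beside ovaries. Ndc80, of the microtubule-binding complex, had 6.72 in females and 2.07 in males (adjusted p 1.02e-06), and cmet is described above.

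Of 12 tested centriole genes 10 were shared higher, 1 shared lower and 1 neither, with a median log2 fold change of 3.14 in females and 3.15 in males. With DESeq2 size factors the medians were 2.84 in females and 3.81 in males. Under TMM scaling the sex difference was called for 6 of the 12. Over all genes tested it was called for 32.5% with the ovary side higher and 28.1% with the testis side higher. asl had 96.1 and 134 CPM in ovaries and 85.6 and 81.7 CPM in testes, against 5.19 and 4.39 CPM in female heads and 5.88 and 3.99 CPM in male heads (log2 fold change 4.33, SE 0.22, adjusted p = 3.02e-07). Sas-6 had 31.3 and 33.98 CPM in ovaries and 34.7 and 25.5 CPM in testes, against 2.22 and 1.69 CPM in female heads and 2.73 and 1.88 CPM in male heads (log2 fold change 3.88, SE 0.25, adjusted p = 1.32e-06). Asl and Sas-6 are needed for new centrioles to form, Sas-6 as the core of the cartwheel. The sex difference did not pass the test for either (adjusted p 0.284 for asl and 0.543 for Sas-6). Of their partners, ana2 had 4.91 in females and 3.91 in males and spd-2, which recruits pericentriolar material, 7.75 in females and 5.16 in males. Plp, the pericentrin-like protein, was the member that fell, to 46.4 and 79.4 CPM in ovaries and 15.7 and 22.4 CPM in testes, against 147 and 141 CPM in female heads and 157 and 142 CPM in male heads (log2 fold change -2.08, SE 0.29, adjusted p = 0.000161).

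Of 19 tested genes of cohesin and condensin, 7 were shared higher (background 28.3%), 0 shared lower and 12 neither, and 4 were called in opposite directions (background 7.67%). Among the condensin members barr, Cap-G, Cap-D2 and SMC2 were shared higher and glu, Cap-D3 and Cap-H2 were not, a split made after the values were seen. barr had 45.9 and 96.8 CPM in ovaries and 79.3 and 86.4 CPM in testes, against 9.12 and 6.76 CPM in female heads and 8.55 and 8.19 CPM in male heads (log2 fold change 3.24, SE 0.30, adjusted p = 1.09e-05). Cap-G had 103.7 and 251 CPM in ovaries and 106 and 143 CPM in testes, against 20.6 and 18.4 CPM in female heads and 18.6 and 21.1 CPM in male heads (log2 fold change 2.92, SE 0.31, adjusted p = 2.86e-05). Both are subunits of condensin, which compacts mitotic chromosomes, and its subunit SMC2 had 4.50 in females and 1.47 in males. Top2, the topoisomerase that untangles sister chromatids, had 3.54 in females and 0.03 in males, and was called on its own in ovaries only. The cohesin ring genes SMC1, SMC3, vtd and SA1 had log2 fold changes of 0.45 to 1.53 in females and -1.30 to -2.63 in males, and were chosen for mention after their values were seen. The male median of the list was -0.73, and it was -0.06 with DESeq2 size factors.

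Of 18 tested genes of heterochromatin and Polycomb 4 were shared higher (background 28.3%), 1 shared lower and 13 neither, 0 were called higher in each sex, and the list had a median log2 fold change of 1.63 in females and -0.94 in males, and the male median was -0.27 with DESeq2 size factors. Caf1-55, a histone-binding subunit of several chromatin complexes, had 3.47 in females and 0.03 in males, and Su(var)205, which encodes HP1a, 2.44 in females and 0.16 in males. HP1c was at the limit of the call (log2 fold change 1.03, SE 0.26, adjusted p = 0.00567), with a log2 fold change of 0.997 and no call when the replicate number was a block. The Polycomb group gene ph-p fell to 12.6 and 17.5 CPM in ovaries and 3.10 and 7.23 CPM in testes, against 59.6 and 68.8 CPM in female heads and 62.6 and 74.1 CPM in male heads (log2 fold change -2.91, SE 0.35, adjusted p = 6.02e-05).

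Of 30 tested nuclear pore and transport genes 22 were shared higher, 0 shared lower and 8 neither, 15 were called higher in each sex, and all 22 had each gonad at 5% or more of the other. Nup160 had 136 and 141 CPM in ovaries and 78.3 and 98.7 CPM in testes, against 10.3 and 10.6 CPM in female heads and 11.4 and 12 CPM in male heads (log2 fold change 3.33, SE 0.15, adjusted p = 2.02e-07). Nup160 is a scaffold nucleoporin, and its sex difference of 0.81 was under the limit of the call. The nucleoporin gene Nup75 had 3.93 in females and 1.75 in males, Nup50 3.78 in females and 1.03 in males, and Rcc1, which charges the transport GTPase Ran, 4.38 in females and 1.45 in males.

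The proteasome, the protease that degrades ubiquitin-tagged proteins, was higher in both gonads for most of its subunits. Of 43 tested subunit genes 34 were shared higher, 0 shared lower and 9 neither, 19 were called higher in each sex, and the list had a median log2 fold change of 2.17 in females and 1.58 in males. Rpn13 had 277 and 257 CPM in ovaries and 244 and 234 CPM in testes, against 78.8 and 73.3 CPM in female heads and 73.6 and 80.2 CPM in male heads (log2 fold change 1.72, SE 0.13, adjusted p = 3.61e-06). Rpt2 had 294 and 225 CPM in ovaries and 139 and 129 CPM in testes, against 54.0 and 51.3 CPM in female heads and 56.5 and 57.1 CPM in male heads (log2 fold change 1.77, SE 0.15, adjusted p = 5.88e-06). Rpn13 is a ubiquitin receptor and Rpt2 an ATPase of the regulatory cap. Rpn11, the deubiquitinase of the cap, had 2.84 in females and 1.20 in males. Many subunits of the fly proteasome have a second gene used in the testis. Rpt3R, one of these by its level here, had 3.13 in females and 6.43 in males. In 9 of the 34 shared higher subunit genes the ovary level was under 5% of the testis level, with log2 fold changes of 8.49 to 10.60 in males and 0.83 to 2.44 in females. Reads of near-identical subunit copies could have been split between them.

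The calls in ribosome biogenesis rested on the ovary for most of its genes. Of 24 tested members 14 were shared higher, 0 shared lower and 10 neither, but 4 were called higher in each sex. The list had a median log2 fold change of 3.58 in females and 0.09 in males. The male median was 0.76 with DESeq2 size factors and 0.48 with upper-quartile factors. Nop56 had 466 and 359 CPM in ovaries and 15.6 and 18.7 CPM in testes, against 14.1 and 12.9 CPM in female heads and 12.3 and 13.04 CPM in male heads, with 4.93 in females and 0.44 in males. Nop56 is a core protein of the particles that methylate ribosomal RNA. Nop60B, the pseudouridine synthase dyskerin, had 5.88 in females and 0.12 in males, and the nucleolar gene mbm 5.19 in females and 0.65 in males. Rrp6, a nuclease of the nuclear exosome, was higher in testes than in ovaries. Rrp6 had 101 and 149 CPM in ovaries and 433 and 366 CPM in testes, against 22.9 and 16.1 CPM in female heads and 23.2 and 19.8 CPM in male heads (log2 fold change 3.45, SE 0.23, adjusted p = 1.34e-06).

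Of 26 tested genes for maternal mRNA and its repression 13 were shared higher, 2 shared lower and 11 neither, and 5 were called higher in each sex. In ovaries over female heads 19 were called higher and 1 lower, and in testes over male heads 5 higher and 8 lower. The list had a median log2 fold change of 1.87 in females and 0.05 in males. With DESeq2 size factors the male median was 0.72. Of the 13 shared higher genes, 9 had each gonad at 5% or more of the other. orb had 746 and 997 CPM in ovaries and 1332 and 1006 CPM in testes, against 88.6 and 86.9 CPM in female heads and 104.3 and 92.8 CPM in male heads (log2 fold change 3.44, SE 0.26, adjusted p = 2.91e-06). Orb binds the polyadenylation element of stored mRNAs in both germlines. exu had 468 and 449.8 CPM in ovaries and 4498 and 3744 CPM in testes, against 12.5 and 2.93 CPM in female heads and 11.96 and 3.62 CPM in male heads (log2 fold change 7.47, SE 0.63, adjusted p = 6.22e-06). Exu localizes bicoid mRNA in the oocyte and is also needed in spermatogenesis, and its testis level was the higher one. By contrast wisp, a cytoplasmic poly(A) polymerase of the egg, had 8.65 in females and 0.01 in males, and swa, another bicoid localization gene, 8.75 in females and 0.06 in males. The translational repressors eIF4EHP and pum were shared lower, with -1.24 in females and -2.89 in males for eIF4EHP and -0.39 in females and -3.73 in males for pum.

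Core spliceosome genes gave 8 shared higher, 0 shared lower and 17 neither of 25 tested, close to the background of 28.3% under TMM scaling. With DESeq2 size factors 14 were shared higher. Under TMM scaling 23 of the 25 were called higher in ovaries over female heads, and in testes over male heads 1 was called higher and 3 lower. SmD1, a protein of the Sm ring, was called in each sex, with 131 and 73.8 CPM in ovaries and 52.9 and 34.2 CPM in testes, against 4.79 and 4.49 CPM in female heads and 7.01 and 5.66 CPM in male heads (log2 fold change 3.62, SE 0.31, adjusted p = 6.54e-06). The splice-site factor gene U2af38 had 2.18 in females and 0.57 in males, Sf3b6 1.91 in females and 0.97 in males and Sf3a1 2.32 in females and 0.11 in males. The median of the list in males was -0.20, and it was 0.47 with DESeq2 size factors and 0.20 with upper-quartile factors. The direction of the list in testes is therefore set by the scaling.

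Cytosolic ribosomal proteins were not part of the shared programme. Of 83 tested genes 4 were shared higher, 0 shared lower and 79 neither, and 53 were called in opposite directions, higher in ovaries and lower in testes. The list had a median log2 fold change of 1.79 in females and -1.16 in males. With DESeq2 size factors the number called in opposite directions was 2 and the medians were 1.46 in females and -0.49 in males, and with upper-quartile factors 10 were called so. The sex difference itself was called for 82 of the 83. sta had 5867 and 3161 CPM in ovaries and 320.2 and 333 CPM in testes, against 733 and 829.7 CPM in female heads and 659 and 715 CPM in male heads. This gene encodes the small-subunit protein RpSA, and its mean contrast was 0.73 (adjusted p 0.0194), short of a call. The 4 shared higher genes, RpS5b, RpS19b, RpL10Aa and RpS28a, are second gene copies, whose reads may be shared with the main copy. Of these 2 were called higher in each sex, and 1 had each gonad at 5% or more of the other. RpS5b had 1541 and 689.6 CPM in ovaries and 47.8 and 30.7 CPM in testes, against 3.38 and 1.66 CPM in female heads and 7.39 and 2.88 CPM in male heads (log2 fold change 5.87, SE 0.49, adjusted p = 6.12e-06). RpS19b was 32.9-fold higher (95% counting interval 12.6 to 122) in ovaries, where the female heads held 2 counts each, and had 10.18 in males on the log2 scale. RpL10Aa had 2.48 and 0.0314 CPM in ovaries and 171 and 91.7 CPM in testes, against 0.301 and 0.0385 CPM in female heads and 0.327 and 0.0703 CPM in male heads, and without ovary replicate 1 its adjusted p was 0.145.

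**Figure D4:**
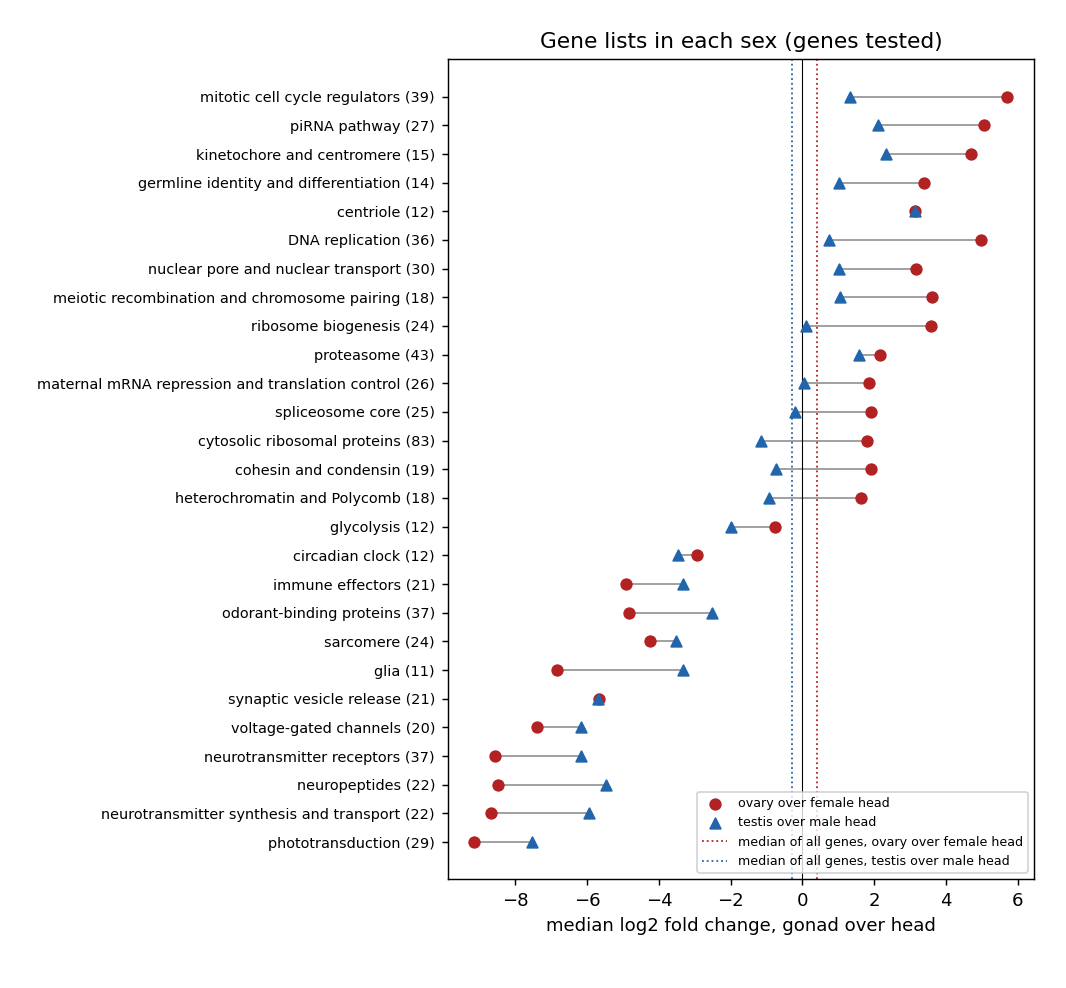
Median log2 fold change of each gene list in females (ovary over female head, circles) and males (testis over male head, triangles), with dotted lines at the medians of all genes tested (0.42 and -0.28). Lists of germline, proteasome and most cell division genes lie to the right in both sexes, and lists of eye, nerve and muscle genes to the left. The lists of cohesin and condensin, heterochromatin and Polycomb, spliceosome and ribosomal protein genes lie on both sides.

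The genes lower in both gonads were led by the eye. All 29 tested phototransduction genes were shared lower (background 28%), and 28 were called lower in each sex (background 20.2%), with a median log2 fold change of -9.15 in females and -7.53 in males. ninaB had 0.242 and 0.126 CPM in ovaries and 0.0861 and 0.145 CPM in testes, against 100.1 and 99.6 CPM in female heads and 99.7 and 103.6 CPM in male heads (log2 fold change -9.41, SE 0.36, adjusted p = 1.1e-07). NinaB cleaves carotenoids to make the visual chromophore. norpA had 146 and 175 CPM in ovaries and 19.4 and 20.9 CPM in testes, against 2492 and 2247 CPM in female heads and 2532 and 2441 CPM in male heads (log2 fold change -5.42, SE 0.19, adjusted p = 9.04e-08). NorpA is the phospholipase C that light-activated G protein switches on, and it kept a higher level in ovaries than in testes. For rdgA, the diacylglycerol kinase of photoreceptors, the values were -4.11 in females and -4.50 in males, and other genes overlap 48.0% of its span. For santa-maria, a carotenoid uptake receptor, they were -6.56 in females and -3.21 in males.

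All 21 tested genes of synaptic vesicle release, all 20 voltage-gated channel genes and all 37 neurotransmitter receptor genes were shared lower, and of these 20, 20 and 37 were called lower in each sex. cac had 14.0 and 10.1 CPM in ovaries and 6.26 and 6.67 CPM in testes, against 589 and 633 CPM in female heads and 679.5 and 669 CPM in male heads (log2 fold change -6.19, SE 0.18, adjusted p = 7.39e-08). Cac is the calcium channel of the presynaptic active zone and stood on both the synapse and the channel list. Rbp had 1.25 and 0.612 CPM in ovaries and 2.30 and 2.098 CPM in testes, against 608 and 450.3 CPM in female heads and 691 and 576 CPM in male heads (log2 fold change -8.66, SE 0.31, adjusted p = 9.52e-08). Rbp ties that channel to vesicles. The vesicle kinesin gene unc-104 had -5.35 in females and -6.29 in males, and the vesicle GTPase gene Rab3 -9.28 in females and -6.79 in males.

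para had 2.09 and 1.26 CPM in ovaries and 3.44 and 2.24 CPM in testes, against 1104 and 1285 CPM in female heads and 1461 and 1445 CPM in male heads (log2 fold change -9.24, SE 0.31, adjusted p = 8.32e-08). Para is the main neuronal sodium channel. The potassium channel beta subunit gene Hk had -7.36 in females and -7.05 in males, and the pore subunit gene Shal had -5.10 in females and -6.51 in males. nAChRalpha1 had 0.462 and 0.345 CPM in ovaries and 14.8 and 13.8 CPM in testes, against 241 and 254 CPM in female heads and 292 and 331 CPM in male heads (log2 fold change -6.85, SE 0.18, adjusted p = 7.39e-08). This subunit of the nicotinic acetylcholine receptor had 13.8 CPM or more in testes and under 0.5 CPM in ovaries. The GABA receptor gene Rdl had -9.71 in females and -8.09 in males, the serotonin receptor gene 5-HT7 had -7.78 in females and -3.03 in males, and its relative 5-HT2B had -8.49 in females and -4.85 in males.

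Of 22 tested genes for making and moving transmitters 21 were shared lower and called lower in each sex, and DAT, the dopamine transporter gene, was called in the ovary only. VGAT had 0.220 and 0.220 CPM in ovaries and 0.473 and 0.242 CPM in testes, against 135 and 129 CPM in female heads and 165 and 155 CPM in male heads (log2 fold change -9.02, SE 0.31, adjusted p = 8.42e-08). VGAT loads GABA into vesicles. Hdc had 0.154 and 0.204 CPM in ovaries and 0.839 and 0.678 CPM in testes, against 129 and 93.7 CPM in female heads and 111 and 98.1 CPM in male heads (log2 fold change -8.18, SE 0.31, adjusted p = 1.07e-07). Hdc makes histamine, the transmitter of photoreceptors, and t, which frees histamine again after uptake, had -7.92 in females and -5.43 in males. Ace, acetylcholinesterase, had -6.55 in females and -7.08 in males.

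Of 22 tested neuropeptide genes 20 were shared lower, all of them in each sex, with a median log2 fold change of -8.50 in females and -5.48 in males. AstC had 0.220 and 0.141 CPM in ovaries and 0.753 and 0.646 CPM in testes, against 97.5 and 72.4 CPM in female heads and 105 and 77.3 CPM in male heads (log2 fold change -7.95, SE 0.28, adjusted p = 9.04e-08). Tk had 0.440 and 0.157 CPM in ovaries and 0.258 and 0.274 CPM in testes, against 61.1 and 50.7 CPM in female heads and 56.5 and 53.0 CPM in male heads (log2 fold change -7.62, SE 0.35, adjusted p = 2.18e-07). AstC is an allatostatin, Tk encodes tachykinins and has 37.5% of its span overlapped by other genes, and in both the gonad libraries were under 1 CPM. AstA had -7.75 in females and -5.75 in males. Mip was 1010-fold lower (95% counting interval 431 to 3100) in ovaries, with 3 and 2 counts, and had -5.75 in males on the log2 scale. Burs and CCAP were not shared, and their log2 fold changes in testes were not called (4.92 for Burs, adjusted p = 0.124, and 1.41 for CCAP, adjusted p = 0.0584).

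Glia and clock genes fell for the most part. Of 11 tested glial genes 8 were shared lower and 3 neither, and of 12 clock genes 8 were shared lower and 4 neither. repo had 0.0879 and 0.0784 CPM in ovaries and 0.258 and 0.678 CPM in testes, against 55.1 and 61.7 CPM in female heads and 55.6 and 63.4 CPM in male heads (log2 fold change -8.19, SE 0.38, adjusted p = 2.24e-07). Repo is the transcription factor that defines most glia. Mdr65, a transporter of the blood-brain barrier, had -6.84 in females and -5.47 in males, wrapper -7.72 in females and -7.73 in males and Gs2, glutamine synthetase, -7.11 in females and -5.58 in males. per had 12.2 and 9.96 CPM in ovaries and 4.89 and 6.31 CPM in testes, against 127 and 88.4 CPM in female heads and 130.1 and 109 CPM in male heads (log2 fold change -3.85, SE 0.22, adjusted p = 6.15e-07). Of its clock partners tim had -2.65 in females and -3.503 in males, Pdp1 -3.90 in females and -4.03 in males and the receptor gene Pdfr -5.47 in females and -4.77 in males. The core clock genes Clk, cyc and dco were called in opposite directions in the sexes under TMM scaling, and 1 of the 3 was with DESeq2 size factors.

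Odorant-binding proteins, which carry odorants in the fluid around olfactory neurons, gave 25 shared lower, 2 shared higher and 8 further genes called higher in testes or in opposite directions among 37 tested. Obp19d had 1.49 and 0.816 CPM in ovaries and 1.25 and 0.742 CPM in testes, against 923 and 1056 CPM in female heads and 669 and 610.2 CPM in male heads (log2 fold change -9.54, SE 0.47, adjusted p = 2.94e-07). Obp49a had -5.69 in females and -6.38 in males, Obp56d -9.996 in females and -4.22 in males and Obp57c -8.38 in females and -8.97 in males. Among the gonad and head libraries, the shared higher members were high in the testis libraries only. Those libraries also held accessory gland transcripts, as given above, and which tissue made these RNAs was not tested. Obp22a had 1.05 and 0.1098 CPM in ovaries and 81.2 and 55.1 CPM in testes, against 0.185 and 0.0385 CPM in female heads and 0.386 and 0.0351 CPM in male heads (log2 fold change 5.43, SE 1.06, adjusted p = 0.00128). For Obp56i the ratio in ovaries was 2.90-fold higher (95% counting interval 0.747 to 16.4), which includes no change, and its testis log2 fold change was 8.53. In both the ovary level was under 5% of the testis level.

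Of 24 tested sarcomere genes 21 were shared lower, 1 shared higher and 2 neither, with a median log2 fold change of -4.24 in females and -3.52 in males. Mhc had 204 and 92.1 CPM in ovaries and 168 and 278 CPM in testes, against 6321 and 5624 CPM in female heads and 4391 and 3214 CPM in male heads (log2 fold change -4.71, SE 0.35, adjusted p = 2.95e-06). Mhc is the muscle myosin heavy chain, and its light chain gene Mlc1 had -5.08 in females and -3.70 in males. The Z-disc gene Actn had -1.72 in females and -3.64 in males and the troponin C gene TpnC25D -10.20 in females and -5.72 in males. Another troponin C gene, TpnC47D, was the shared higher one. TpnC47D had 20.2 and 6.57 CPM in ovaries and 29.3 and 27.2 CPM in testes, against 7.90 and 6.33 CPM in female heads and 4.66 and 3.51 CPM in male heads (log2 fold change 1.85, SE 0.34, adjusted p = 0.000885). Without ovary replicate 1 it was no longer higher in ovaries than in female heads, and the list held 0 shared higher genes. Both gonads are known to carry a muscle sheath, and the muscle markers given above are themselves members of this list.

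Of 21 tested immune genes 15 were shared lower and 6 neither, and 2 of these 6 were called higher in testes over male heads. BomS3 had 7.93 and 2.78 CPM in ovaries and 5.98 and 6.97 CPM in testes, against 278 and 604 CPM in female heads and 329 and 642 CPM in male heads (log2 fold change -6.30, SE 0.50, adjusted p = 4.43e-06). BomS3 and BomS2 encode short secreted peptides of the Toll response, and BomS2 had -5.99 in females and -6.18 in males. The stress gene TotC had -6.58 in females and -7.29 in males, and PGRP-SB1, which degrades peptidoglycan, -5.51 in females and -8.21 in males. Of 12 glycolysis genes 6 were shared lower, 0 shared higher and 6 neither, and 2 were called lower in each sex, beside backgrounds of 28% and 20.2% over all genes tested. The medians of the list were -0.75 in females and -2.002 in males, and -1.07 and -1.34 in the same order with DESeq2 size factors. Ald1 had 343 and 248 CPM in ovaries and 796 and 738 CPM in testes, against 2245 and 1882 CPM in female heads and 2111 and 1747 CPM in male heads (log2 fold change -2.07, SE 0.20, adjusted p = 1.41e-05). Ald1 is an aldolase. Gapdh1 had -1.05 in females and -4.27 in males, Pglym78 -0.77 in females and -3.65 in males and PyK, pyruvate kinase, -0.73 in females and -3.63 in males.

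The sexes differed in the size of the gonad difference at many genes. The interaction term was called for 32.5% of the genes tested with the ovary side higher and for 28.1% with the testis side higher. It was called for 2182 of the 3565 shared higher genes and 1833 of the 3529 shared lower genes. Of the 966 genes called in opposite directions, 709 were higher in ovaries and lower in testes and 257 the reverse, and the number was 626 with DESeq2 size factors, 622 in a fit of the 8 gonad and head libraries alone and 599 without ovary replicate 2. The genes of this kind with the largest fold changes were for the most part weakly expressed. CG31262 had 66.4 and 39.0 CPM in ovaries and 0.0430 and 0 CPM in testes, against 0.533 and 0.539 CPM in female heads and 1.37 and 0.299 CPM in male heads. Its log2 fold change in females was 6.61, and in testes, with 2 and 0 counts, it was 37.7-fold lower (95% counting interval 10 to 318). Os-C, known from the antenna, was at least 15.3-fold higher in ovaries and 115-fold lower (95% counting interval 31.5 to 960) in testes, and no ovary level exceeded 1.25 CPM. CG43156 had 13.2 and 3.09 CPM in ovaries and 0 counts in testes, against 0.417 and 0.481 CPM in female heads and 0.445 and 0.264 CPM in male heads. It was at least 5.49-fold lower in testes, and without female head replicate 1 its adjusted p in females was 0.053.

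In the reverse direction stood the cuticle gene Cpr92A. Cpr92A had 0.0440 and 0.0314 CPM in ovaries and 4.45 and 9.72 CPM in testes, against 1.34 and 1.35 CPM in female heads and 0.119 and 0.105 CPM in male heads. It was 36.8-fold lower (95% counting interval 14.0 to 137) in ovaries and had a log2 fold change of 5.96 in males. For lncRNA:CR45552 the bound in ovaries was at least 2.19-fold lower and the testis log2 fold change 6.18. For lncRNA:CR44059 the bound was at least 1.17-fold lower and the testis value 6.12, and its adjusted p in females was 0.0511 without ovary replicate 2 and 0.0755 without female head replicate 1. The head levels of these RNAs were under 0.24 CPM.

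The shared sets were then followed in libraries that the contrast had not used, embryos of 18 h over whole adults. There 19% of the genes tested were called higher and 29.7% lower in embryos. Of the 3414 shared higher genes tested, 250 (7.32%) were higher and 1952 (57.2%) lower in embryos. The 1627 tested genes with one gonad under 5% of the other gave 3.07% higher and 90.8% lower. The 1787 tested genes with both gonads at 5% or more gave 11.2% higher and 26.5% lower, with the difference from all genes not tested. Of the 3427 shared lower genes tested, 964 (28.1%) were higher and 752 (21.9%) lower in embryos. Whole adults contain both heads and gonads.

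Gene length and chromosome were not used by the rule. The median span from start to end was 1500 bp for the 3565 shared higher genes and 2030 bp for those with both gonads at 5% or more, against 4901 bp for the shared lower genes and 2227 bp for all genes tested. In the fifth of genes with the shortest span, up to 991 bp, 41.6% were shared higher and 16% shared lower. In the fifth with the longest span, from 6948 bp, 6.87% were shared higher and 57.8% shared lower. The gene lengths in the table are whole spans, so reads from introns may have been counted, and the part of this in the shares was not tested. Non-coding RNAs made up 11.8% of the shared higher genes but 3.57% of those called higher in each sex, against 9.38% of all genes tested.

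The small chromosome 4 had the largest share of shared lower genes. Of 94 tested there, 65 (69.1%) were shared lower and 3 (3.19%) shared higher, and the median log2 fold change was -1.29 in females and -2.99 in males. On the X chromosome 24.7% of 1887 genes were shared higher and 28.5% shared lower. There 34.9% were called higher in ovaries and 23.5% in testes, and the median was 0.62 in females and -0.98 in males. On 2L, 32.1% of 2471 genes were shared higher and 25% shared lower. These shares are descriptions, since neighbouring genes are not independent of each other.

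**Figure D5:**
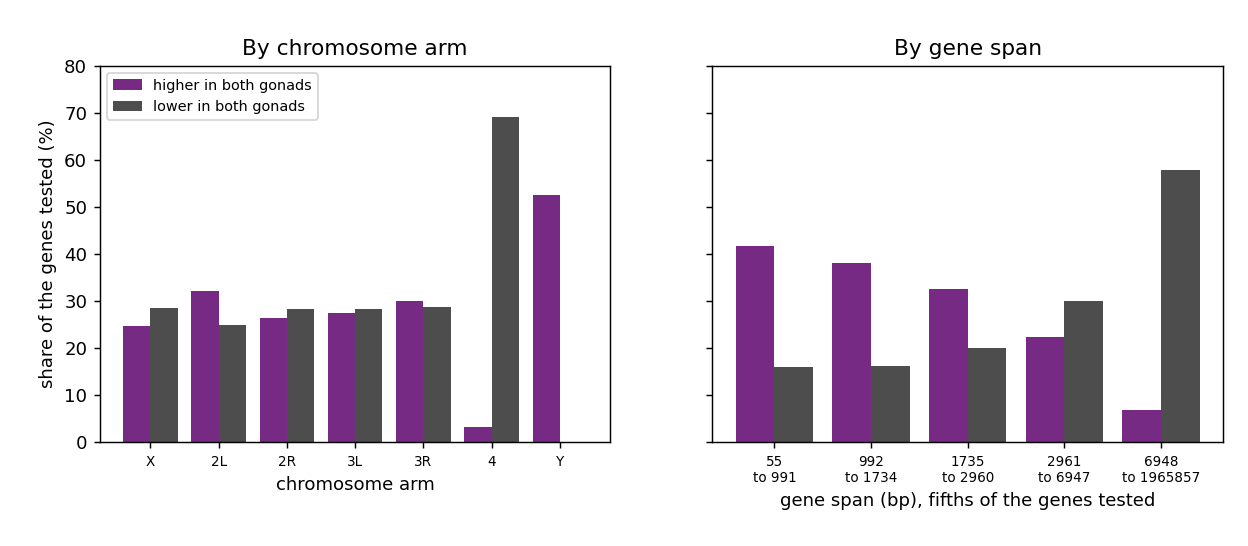
Share of the genes tested that were higher (purple) or lower (grey) in both gonads, by chromosome arm and by gene span in 5 equal groups. The lower share is 69.1% on chromosome 4 and 57.8% among the longest genes, and the higher share falls to 6.87% there.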

How the data were processed

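Poly(A) RNA of w1118 flies was sequenced. After trimming (cutadapt 1.15) and mapping to dm6 (TopHat2 2.1.1), the authors deposited a table of raw read counts per gene and library. The counter and its options are not given in the sources used here. The gene lengths in the table equal whole gene spans, introns included, and whether strand was used is unknown. The 12 adult-part libraries held 37198249 to 67429362 counts, and the embryo and whole adult libraries 45662046 to 87676051. Columns were mapped by name. Names for 17742 of 17825 genes came from an Ensembl annotation.

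Counts were tested in R 4.3.3 with edgeR 4.0.16 (glmQLFit and glmQLFTest, TMM, filterByExpr with a minimum count of 10, 1 coefficient per group), with stages fitted apart because read length and strand protocol differ. A standard error is the fold change divided by the square root of F. The common biological coefficient of variation was 0.365. The procedure was tested on simulated data with a small part of the genes changed, alike in both gonads and up as often as down. That setting is unlike these data, so it says nothing of unequal changes in the sexes or of the choice of scaling. Intervals and floors (3 counts) cover counting error only.

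The members, the 27 lists of known genes and the markers were chosen with earlier results of these data known, and no list was tested as a set. Genes named are the 10 per direction with the largest smaller-of-the-sexes fold change (at least 50 counts in each library of the higher side, no overlap), up to 4 per list with the smallest adjusted p, up to 2 per list against its direction, and up to 3 per direction called oppositely. Others named were chosen after their values were seen. Of the list names, 5 were not matched.

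Libraries of one replicate number deviated together in all 15 pairs of groups (correlation of deviations 0.279 to 0.672, median 0.386). The numbers come from the labels, which do not say what they share, so the replicate number as a block was an alternative. Others were DESeq2 1.42.0 size factors and Wald test, upper-quartile factors, filters, fewer libraries, no minimum fold and each library left out.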

Additional observations from a re-analysis of the deposited data

Results flagged for a closer look

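For the genes described above, the ovary over female head difference was compared with the testis over male head difference by the interaction term of the same edgeR fit. Of 139 such genes, 82 had an adjusted p under 0.05 and a difference of at least 1 on the log2 scale, with the ovary side above the testis side in 53 and below it in 29. Among all genes tested the shares were 32.5% and 28.1%. The values below are the ovary-side log2 fold change minus the testis-side one.

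In the list germline identity and differentiation the sex difference was 8.02 for otu, 5.44 for vas, 3.19 for Sxl and 1.39 for tud. Among the list piRNA pathway it was 3.39 for vret, 1.30 for mael, 4.12 for aub and 3.21 for armi. For the list meiotic recombination and chromosome pairing it came to -4.72 for cona, 5.16 for c(2)M, -6.02 for ord and 2.46 for vilya. Within the list DNA replication it stood at 3.79 for dpa, 5.60 for RnrS, 1.99 for geminin and 4.92 for PCNA. It measured, for the list mitotic cell cycle regulators, 2.06 for Cks30A, 5.23 for CycB and 2.25 for Incenp. In the list kinetochore and centromere the sex difference was 4.92 for cid and 4.66 for Ndc80. Among the list centriole it was 2.59 for spd-2 and 1.77 for Plp. For the list cohesin and condensin it came to 3.03 for SMC2 and 3.51 for Top2. Within the list heterochromatin and Polycomb it stood at 3.44 for Caf1-55 and 2.28 for Su(var)205. It measured, for the list ribosome biogenesis, 5.76 for Nop60B, 4.49 for Nop56, -1.54 for Rrp6 and 4.54 for mbm. In the list maternal mRNA repression and translation control the sex difference was 8.69 for swa, 8.64 for wisp, -3.15 for exu, 1.65 for eIF4EHP and 3.33 for pum. Among the list nuclear pore and nuclear transport it was 2.92 for Rcc1, 2.18 for Nup75 and 2.75 for Nup50. For the list spliceosome core it came to 1.68 for SmD1, 1.60 for U2af38 and 2.21 for Sf3a1. Within the list phototransduction it stood at 3.07 for norpA and -3.35 for santa-maria. It measured, for the list synaptic vesicle release, 1.04 for cac and -2.49 for Rab3. In the list voltage-gated channels the sex difference was 1.41 for Shal. Among the list neurotransmitter receptors it was -4.82 for nAChRalpha1, -1.62 for Rdl, -4.76 for 5-HT7 and -3.64 for 5-HT2B. For the list neurotransmitter synthesis and transport it came to -2.49 for t and -2.14 for Hdc. Within the list neuropeptides it stood at -1.86 for AstC, -4.16 for Mip and -1.99 for AstA. It measured, for the list glia, -1.36 for Mdr65, -2.46 for repo and -1.53 for Gs2. In the list circadian clock the sex difference was 1.14 for per. Among the list odorant-binding proteins it was -5.78 for Obp56d and -6.13 for Obp22a. For the list sarcomere it came to -4.47 for TpnC25D, 1.91 for Actn and -1.88 for TpnC47D. Within the list glycolysis it stood at -1.47 for Ald1, 3.22 for Gapdh1, 2.88 for Pglym78 and 2.90 for PyK. It measured, for the list cytosolic ribosomal proteins, 5.85 for RpS5b, -5.11 for RpS19b, -6.58 for RpL10Aa and 3.60 for sta. In the list proteasome the sex difference was -3.29 for Rpt3R, 1.64 for Rpn11 and 1.06 for Rpt2. Among the genes called in opposite directions it was 15.54 for Os-C, 11.86 for CG31262, 11.32 for CG43156, -12.04 for lncRNA:CR45552, -11.06 for Cpr92A and -11.10 for lncRNA:CR44059.

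With 2 libraries a group, no search for single outlying libraries within a group was possible. Os-C, CG43156, lncRNA:CR45552 and lncRNA:CR44059 had 0 counts in both libraries of a group, and vilya, Mip, RpS19b, CG31262 and Cpr92A 1 to 3 counts, so their fitted values depend on the prior count and are no bounds. Causes of these differences were not tested.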

How the results depend on the processing

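Scaling moved the whole comparison. The median log2 fold change of all genes tested was 0.218 with TMM, 0.395 with DESeq2 size factors and 0.296 with upper-quartile factors, and in males alone -0.284, 0.366 and 0.0943. The number of genes called in opposite directions was 966 and became 626 with DESeq2 size factors and 622 with only the 8 gonad and head libraries. With at least 10 counts in every library, which left 8071 genes, the counts were 2286 higher in both gonads, 2146 lower in both, 1593 lower in each sex, 372 opposite and 4462 with a sex difference, in place of 3565, 3529, 2540, 966 and 7632. A limit on the lower gonad, added after the data were seen, left 2029 genes higher in both at 2% of the other gonad, 1834 at 5% and 1649 at 10%, and for genes higher in each sex 1020, 961 and 890. With no minimum fold 378 shared higher genes were called higher in embryos, against 250.

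With the replicate block, 3528 genes were higher and 3573 lower in both gonads, 1567 higher and 2623 lower in each sex, 1070 opposite and 8188 with a sex difference, and 244 shared higher genes were higher in embryos. The block moved no count by over 1.5 times, but HP1c was no longer called and its list held 2 shared higher genes in place of 4. It changed no other call of a named gene.

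Leaving out each library in turn gave 2599 to 3923 genes higher in both gonads, 3465 to 3642 lower in both, 935 to 1704 higher in each sex, 2361 to 2603 lower in each sex, 599 to 1079 opposite, 5997 to 7980 with a sex difference and 189 to 273 higher in embryos. The lowest values were without ovary replicate 1 for genes higher in both and without ovary replicate 2 for opposite genes. Where a group kept 1 library, its spread was taken from the other groups. The share of higher genes among those called in each sex was 31.1%, and it was 44% with at least 10 counts in every library.

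Over all alternatives, 2109 values of single named genes kept their call and 21 lost it, 10 of them for tud and 6 for HP1c, and none changed sign. Counts of list members stayed within 1.5 times in 859 cases and moved further in 32. Spliceosome genes higher in both were 14 in place of 8 with DESeq2 size factors, with its Wald test and with at least 10 counts in every library. Medians of lists changed by at most 0.79 when genes with 0 counts in a group were set to their bound, the most in immune effectors. The values followed for named genes were those of the mean contrast, and of each sex only for the genes called in opposite directions. The same sign in each sex was therefore not followed for them, and a change in a single sex, as for TpnC47D, does not show. Genes that failed a filter gave no value. With at least 10 counts in every library 99 values kept their call and 1 lost it, against 144 and 1 with no filter on low counts. Low counts limit the genes named from the lower end and the opposite calls.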

Other observations

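Bodies without heads contain the gonads and were not part of the contrast. The median level of the 1148 genes higher in each sex was 33.7 and 31.7 CPM in female bodies and 24.9 and 22.7 CPM in male bodies, between the 46.1 and 45.6 CPM of ovaries and 46.9 and 40.4 CPM of testes on one side and the 4.86 to 5.54 CPM of heads on the other. For the 2540 genes lower in each sex the bodies stood at 6.68 to 13.4 CPM, the ovaries at 1.10 and 0.533 CPM and the testes at 2.52 and 2.57 CPM, against 56.3 to 59.8 CPM in heads.

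The 1731 shared higher genes with one gonad under 5% of the other were set beside the remaining 1834. Non-coding RNAs were 20.3% of the 1731 and 3.71% of the 1834, and genes known by a CG number only were 54.7% and 32.9%. Their median level was 1.011 and 0.141 CPM in ovaries and 57.2 and 41.4 CPM in testes, against 0.185 and 0.0385 CPM in female heads and 0.178 and 0.0352 CPM in male heads.

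Of 40 Y-linked genes tested, 21 were shared higher, although females carry no Y chromosome. All Y-linked genes together summed to 17.6 and 6.39 CPM in ovaries and 682 and 574 CPM in testes, against 130 and 15.2 CPM in female heads and 187 and 25.3 CPM in male heads. The replicate 1 heads of both sexes lay above the replicate 2 heads. The cause was not tested.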
